A study of Kluyveromyces marxianus and Kluyveromyces lactis with 30 samples.

Results

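PMP1 and VMA9 of the yeast Kluyveromyces lactis are 2 small genes named for parts of the machinery that moves protons out of the cytosol. They were taken by their IDs, Klac_YGOB_PMP1 and Klac_YGOB_VMA9, from the 5320 genes counted in all 15 K. lactis libraries, and both passed the filter on low counts. Poly(A)-captured RNA of strain yLB72 was sequenced from cultures grown in the rich medium YPD under 5 conditions with 3 biological replicates each. The conditions were growth at 28C without added stress (control), heat at 39C, the DNA-alkylating agent methyl methanesulfonate (MMS), ethanol, and caffeine. The labels give no dose for the 3 chemicals and no growth temperature for those cultures, which were harvested while still growing. Every stress was compared with the same 3 controls, so the comparisons are not independent of each other. The series also holds Kluyveromyces marxianus cultures, which were not used here.

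Yeast cells keep their cytosol near neutral with a pair of proton pumps. The plasma membrane pump Pma1 is a single-chain ATPase that drives nutrient uptake, and in baker's yeast Pmp1 is a very small membrane protein (a proteolipid) that binds Pma1 and raises its activity. The vacuolar pump is a rotary ATPase of many subunits that acidifies the vacuole. In baker's yeast Vma9 is the small membrane subunit e of its proton-conducting sector, and cells without it lose vacuolar acidification. The roles of both genes are known from baker's yeast, and the K. lactis proteins were not studied in these data. Of 32 baker's yeast names listed for the pumps, their regulators and their assembly factors, K. lactis IDs carry 2, PMP1 and VMA9, so the other pump genes were not analysed here.

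PMP1 lies on chromosome 1, positions 990001 to 990120 of the plus strand, as 1 coding part of 120 nt with no gene overlapping it. The nearest annotated genes both lie on the minus strand: KLLA0A11396g starts 930 nt upstream of PMP1 and points away from it, and KLLA0A11440g ends 658 nt downstream. VMA9 lies on chromosome 4, positions 403068 to 404007 of the minus strand, in 3 parts of 65, 81 and 543 nt. Their sum of 689 nt is 229 codons with 2 bases over, so the 3 annotated parts are not a whole number of codons. The last 72 nt of part 3, or 10.4% of the annotated length, are also annotated as a tRNA gene on the plus strand (Klac_4.trna13D). The coding gene KLLA0D04708g, transcribed towards VMA9, ends 5 nt beyond it, and KLLA0D04752g starts 273 nt upstream of VMA9 in the opposite direction. Coordinates are those of the deposited featureCounts files, which name no genome build.

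**Figure D1:**
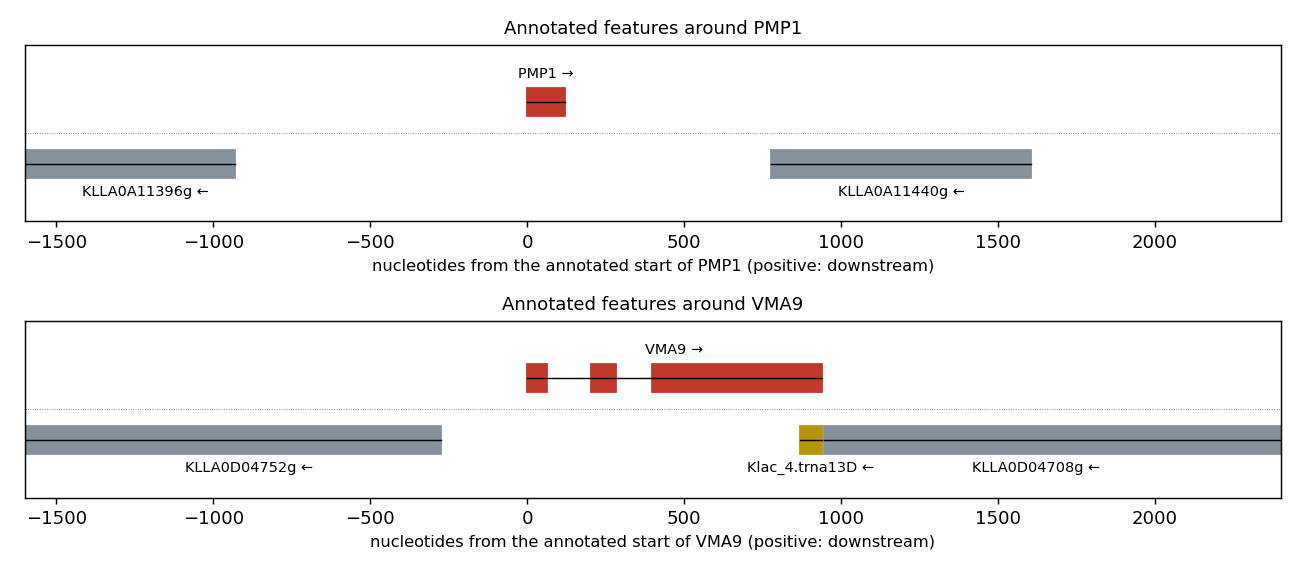
Annotated features around PMP1 (top) and VMA9 (bottom), with the x axis in nucleotides from the annotated start of each gene and transcription of that gene to the right. Red boxes are the coding parts of PMP1 and VMA9, grey boxes the neighbouring genes and the yellow box the tRNA gene that overlaps VMA9; PMP1 stands alone, while part 3 of VMA9 ends over the tRNA gene and 5 nt from KLLA0D04708g.

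The gene counts summed to 16896112 to 50911717 per library in the 12 libraries without ethanol and to 38998321 to 94410956 in the 3 ethanol libraries. PMP1 received 6576 to 32281 counts per library, so its counting error was at most 1.23%. VMA9 received 194 to 750 counts in the libraries without ethanol and 1503 to 4071 in ethanol, with a counting error of up to 7.18%. These errors cover counting only. The ethanol files came from featureCounts and the others from an HTSeq count, so in ethanol the culture and the counting program cannot be told apart, and each ethanol value below carries that limit. Levels are in CPM, the counts per 1000000 of a library's gene counts after scaling of that total by TMM, which sets the typical gene at no change. A gene was called at a Benjamini-Hochberg adjusted p under 0.05 in the quasi-likelihood test of edgeR over 5124 genes.

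Both genes were lower in MMS, PMP1 was also lower in ethanol, and VMA9 was lower in caffeine and higher in ethanol. Neither was called in heat. The MMS calls of both genes and the caffeine call of VMA9 passed under TMM and RLE scaling and did not pass with plain library totals, and the same held for MMS against heat in both genes and for caffeine against MMS in VMA9. Per kilobase of annotated length, PMP1 was among the most abundant transcripts in every condition and VMA9 was not. PMP1 stood at 6308 ± 327 CPM per kb in controls (SD, n = 3), rank 21 of 5124 tested genes. Its rank was 33 in heat and in ethanol. In MMS, where its level was called lower, and in caffeine its rank was 14, above that in controls. VMA9 stood at 25.5 ± 3.51 CPM per kb in controls, rank 3772. That level divides by the 689 annotated nt. Parts 1 and 2 held on average from 1.34% (controls) to 4.33% (heat) of VMA9 counts, so the VMA9 values are almost entirely those of part 3. Whether all of the annotated length belongs to the VMA9 transcript was not tested. VMA9 was lowest in MMS at 12.01 ± 0.714 CPM per kb (rank 4730) and highest in ethanol at 56.1 ± 2.86 CPM per kb (rank 2416).

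**Figure D2:**
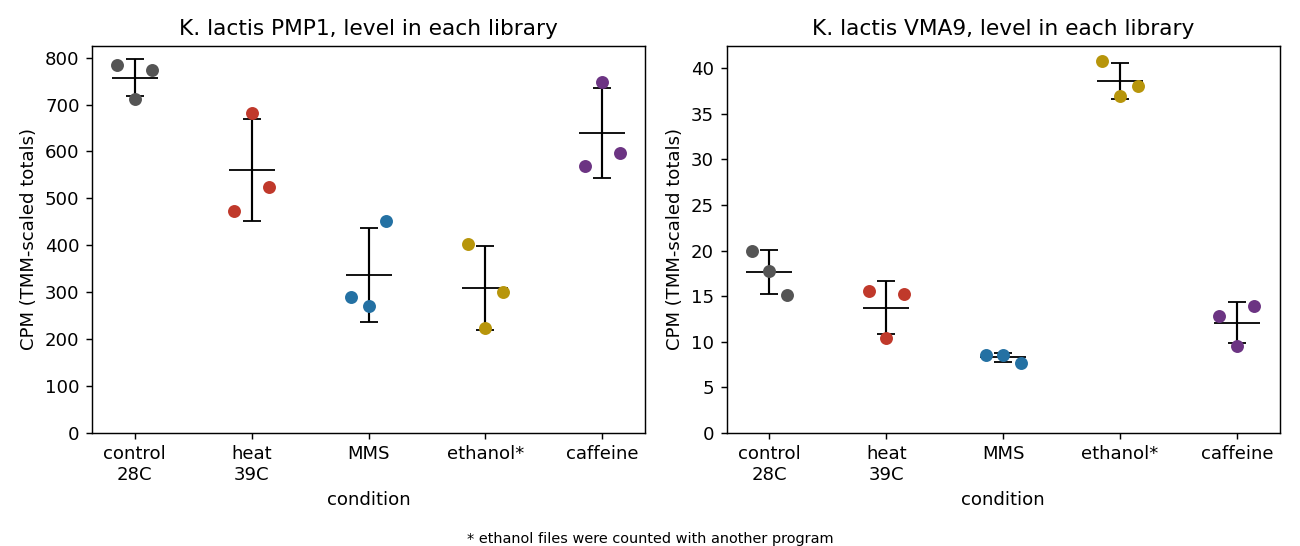
Level of PMP1 (left) and VMA9 (right) in each of the 15 libraries, in CPM of TMM-scaled totals by condition; points are libraries, the long bar is the mean, the error bar the SD of 3 libraries, and the asterisk marks ethanol, which was counted with another program. PMP1 lies between 712 and 785 CPM in controls and at or below 452 CPM in every MMS and ethanol library; VMA9 lies at 7.71 to 8.59 CPM in MMS and at 37.0 to 40.8 CPM in ethanol.

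PMP1, the plasma membrane pump regulator, held 785, 712 and 774 CPM in control replicates 1, 2 and 3. The MMS libraries held 289, 269.8 and 452 CPM. All 3 lay below every control, and MMS replicate 3 stood well above the other 2. The MMS mean was 337 ± 100.3 CPM against 757 ± 39.2 CPM in controls (SD, n = 3), a 2.25-fold lower level (log2 change -1.17 ± 0.23 SE, edgeR adjusted p = 0.000487). In MMS 35.9% of all tested genes were called lower, and both genes were. The ethanol libraries held 403, 224 and 300.2 CPM of PMP1, again all below the controls. That is 2.45-fold lower (log2 change -1.29 ± 0.23 SE, edgeR adjusted p = 0.000277), where 32.3% of tested genes were called lower. Of all tested genes, 11.4% had a lower log2 change than PMP1 in MMS and 6.85% in ethanol.

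In heat the PMP1 libraries held 473, 682 and 524 CPM. Each lay below every control, but the heat replicates spread more widely, with a coefficient of variation of 19.4% against 5.18%. The log2 change was -0.44 ± 0.23 SE and did not pass the test (edgeR adjusted p = 0.106; 95% interval -0.93 to 0.06), in a comparison where 71.0% of tested genes were called in either direction. A fit of the 6 libraries of this comparison alone did call it (log2 change -0.39, edgeR adjusted p = 0.0187). In caffeine PMP1 held 569, 748 and 598 CPM, and replicate 2 lay within the range of the controls. The log2 change of -0.25 ± 0.23 SE was not called (edgeR adjusted p = 0.373; 95% interval -0.74 to 0.25).

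Set in order over the conditions counted alike, the mean PMP1 level ran from control (757 CPM) through caffeine (638 ± 96.2) and heat (559.6 ± 109) to MMS (337 ± 100.3). Ethanol, counted with another program, stood at 309 ± 89.8 CPM and is not placed in this order. Caffeine and heat did not differ beyond their spread (log2 difference 0.19, edgeR adjusted p = 0.466, 95% interval -0.30 to 0.69). Heat and MMS did: MMS was 1.66-fold lower (log2 change -0.73 ± 0.23 SE, edgeR adjusted p = 0.0115), with 34.4% of tested genes called lower in that comparison. Leaving out MMS replicate 1, MMS replicate 2 or heat replicate 2 ended the call (log2 changes -0.62, -0.59 and -0.56, edgeR adjusted p = 0.0551, 0.0612 and 0.0613). Caffeine exceeded MMS 1.89-fold (edgeR adjusted p = 0.00318), where 32.2% of tested genes were called higher. Ethanol was not tested against the other stresses because of its counting.

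VMA9, the vacuolar pump subunit, held 19.96, 17.7 and 15.1 CPM in control replicates 1, 2 and 3. The MMS libraries held 8.53, 8.59 and 7.71 CPM. They lay close together and all below the controls, also in replicate 3, in which PMP1 stood apart. The MMS level was 2.13-fold lower (log2 change -1.09 ± 0.17 SE, edgeR adjusted p = 4.56e-05). Caffeine gave 12.8, 9.57 and 13.9 CPM, each below the lowest control. VMA9 was thus 1.45-fold lower there (log2 change -0.54 ± 0.16 SE, edgeR adjusted p = 0.00969), a comparison in which 31.2% of tested genes were called lower. Without caffeine replicate 2, its lowest library, the call was lost (log2 change -0.39, edgeR adjusted p = 0.0536).

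Heat left VMA9 at 15.6, 10.4 and 15.2 CPM, so replicates 1 and 3 overlapped the lowest control. Its log2 change of -0.36 ± 0.16 SE narrowly missed the threshold (edgeR adjusted p = 0.0607, 95% interval -0.70 to -0.01). The call was gained without control replicate 3 (log2 change -0.45, edgeR adjusted p = 0.0328) or without heat replicate 1 (log2 change -0.45, edgeR adjusted p = 0.0431), while without heat replicate 2 the log2 change was -0.20. The ethanol libraries held 40.8, 37.0 and 38.1 CPM, all above every other library. The difference was 2.19-fold (log2 change 1.13 ± 0.16 SE, edgeR adjusted p = 2.97e-05), and 33.1% of tested genes were called higher in ethanol.

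Among the conditions counted alike, mean VMA9 ran in the order control (17.6 ± 2.42 CPM), heat (13.7 ± 2.89), caffeine (12.1 ± 2.24) and MMS (8.28 ± 0.492). Heat and caffeine did not differ beyond their spread (log2 difference -0.18, edgeR adjusted p = 0.324, 95% interval -0.53 to 0.17), although 73.1% of tested genes were called between these conditions. MMS lay 1.66-fold below heat (edgeR adjusted p = 0.00139). Caffeine lay 1.47-fold above MMS (edgeR adjusted p = 0.00995), a call lost without caffeine replicate 3 (log2 change 0.43, edgeR adjusted p = 0.0604).

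**Figure D3:**
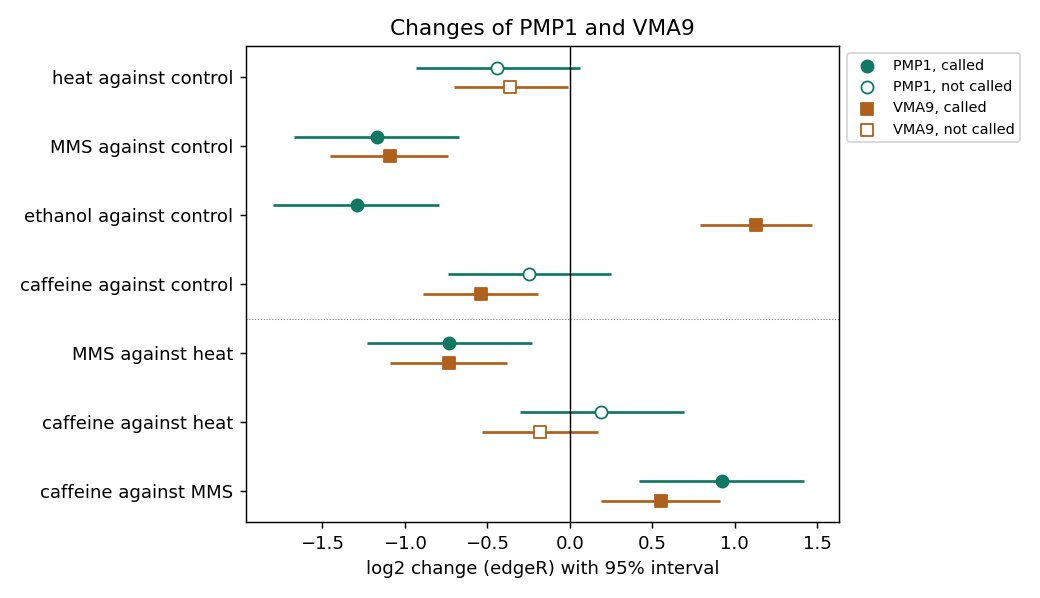
The edgeR log2 change of PMP1 (green circles) and VMA9 (orange squares) with its 95% interval (line) for each stress against control and for 3 direct comparisons of stresses below the dotted line; filled symbols have an adjusted p under 0.05. Both genes lie near -1.1 in MMS, and they stand on opposite sides of 0 in ethanol, at -1.29 for PMP1 and 1.13 for VMA9.

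These changes are relative to the typical gene, and several calls depended on that scaling. The TMM factors were 0.735 to 0.760 in controls and 1.23 to 1.39 in MMS. Averaged over the libraries, these factors shift log2 changes against plain library totals by -0.83 in MMS, -0.49 in ethanol and caffeine, and -0.32 in heat, while the fitted values of a single gene can shift slightly more or less. In CPM of unscaled library totals, PMP1 took 564 ± 35.5 in controls and 441 ± 102 in MMS (SD, n = 3). VMA9 took 13.1 ± 1.65 in controls, 11.0 ± 1.29 in MMS and 12.7 ± 2.55 in caffeine. On that scale neither gene was called in MMS (log2 change -0.36 for PMP1, edgeR adjusted p = 0.0891; -0.26 for VMA9, edgeR adjusted p = 0.2). VMA9 was not called in caffeine either (-0.05, edgeR adjusted p = 0.825), and PMP1 in caffeine changed sign without a call (0.24, edgeR adjusted p = 0.258). MMS against heat was not called for PMP1 (-0.24, edgeR adjusted p = 0.26) or VMA9 (-0.22, edgeR adjusted p = 0.287), nor was caffeine against MMS for VMA9 (0.21, edgeR adjusted p = 0.321). The ethanol differences of both genes passed on either scale, at -0.83 for PMP1 (edgeR adjusted p = 0.00104) and 1.62 for VMA9 (edgeR adjusted p = 2.53e-06).

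**Figure D4:**
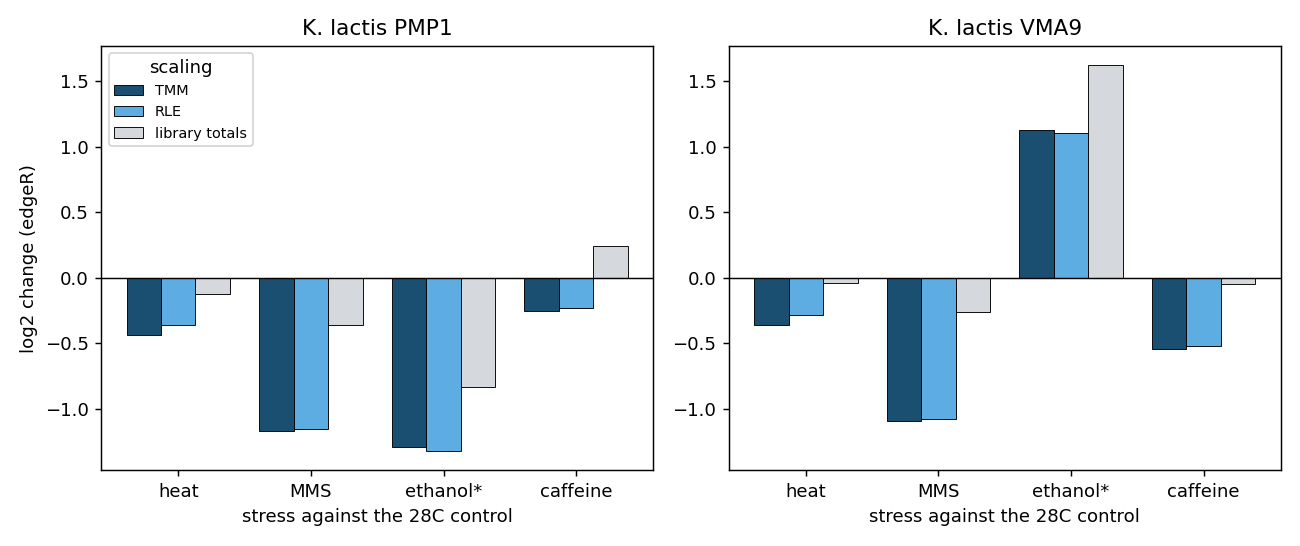
The edgeR log2 change of PMP1 (left) and VMA9 (right) against the 28C control in each stress under TMM scaling (dark blue), RLE scaling (light blue) and plain library totals (grey); the asterisk marks ethanol, counted with another program. TMM and RLE bars have nearly equal heights, while with library totals the MMS bars shrink to -0.36 and -0.26 and the PMP1 bar in caffeine changes sign to 0.24.

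The ratio of the genes within a library does not depend on scaling. For every 1000 PMP1 counts, VMA9 had 25.4, 24.9 and 19.5 counts in the controls. Heat gave 32.9, 15.3 and 29.0, MMS 29.5, 31.8 and 17.0, and caffeine 22.4, 12.8 and 23.2, so each of these groups overlapped the controls. The mean log2 ratio differed from controls by 0.08 in heat, 0.12 in MMS and -0.30 in caffeine (2-sided exact permutation p = 0.8, 0.6 and 0.5), against an SD of 0.48 to 0.59 among stressed libraries. With part 1 or part 2 alone in place of the whole of VMA9, the heat difference was 2.18 or 1.42 (exact permutation p = 0.1 each, the smallest possible), on few counts. In ethanol the ratio was 101, 165 and 127 per 1000, above all other libraries, and the log2 difference was 2.47, or 5.56-fold. Its exact permutation p was 0.1, the smallest that 3 libraries against 3 can give, and 0.4 after adjustment over the 4 stresses.

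The counts of VMA9 came almost entirely from part 3. In controls parts 1 and 2 together held 8, 10 and 4 counts, which is 1.09% to 1.57% of the gene's counts in these libraries. Per kilobase, part 3 stood 16.8 to 24.5 times higher than parts 1 and 2 in the controls. Reads were counted per part, so the handling of reads that span a boundary between parts can affect this gap, which was not tested. The share in parts 1 and 2 was highest in heat. They held 11, 10 and 30 counts there, or 3.69%, 4.78% and 4.51% of VMA9 counts, with exact 95% binomial intervals of 1.86% to 6.51%, 2.32% to 8.62% and 3.06% to 6.38%. All 3 heat shares lay above every control share (4.33% ± 0.569 against 1.34% ± 0.245, SD, n = 3; exact permutation p = 0.1, the smallest possible, and 0.2 adjusted over 4 stresses).

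In the edgeR fit with parts 1 and 2 as the gene, a choice made after the counts were seen, they rose 2.52-fold in heat (log2 change 1.33 ± 0.34 SE, adjusted p = 0.00319). Part 3 alone fell 1.32-fold in heat (log2 change -0.40 ± 0.16 SE, edgeR adjusted p = 0.0403). With plain library totals the rise of parts 1 and 2 remained past the threshold (log2 change 1.64, edgeR adjusted p = 0.000662), and part 3 was not called (-0.08, edgeR adjusted p = 0.704). The rise rests on 51 counts of parts 1 and 2 over 3 heat libraries against 22 in controls. Of 155 genes in more than 1 part with enough counts, 27.1% had a higher share outside their longest part in every heat library than in every control. VMA9's mean share in heat was 3.23 times that in controls, and 16 of these genes had a larger ratio. The tRNA gene on the opposite strand held 5 to 15 counts in heat libraries and 0 to 2 in controls. Ambiguous reads took 3.69% ± 0.213 in heat against 2.22% ± 0.185 in controls, as a share of ambiguous reads plus gene counts. The part of either in this result was not tested.

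Parts 1 and 2 overlap no annotated gene, and they were higher in ethanol as well. They held 32, 95 and 45 counts there, or 0.869, 0.863 and 0.955 CPM against 0.206 to 0.279 CPM in controls. That is a 3.72-fold difference (log2 change 1.89 ± 0.30 SE, edgeR adjusted p = 9.45e-05), against 2.16-fold for part 3 alone. The share in parts 1 and 2 was 2.13% to 2.51% in ethanol, above all controls (exact permutation p = 0.1, adjusted 0.2), as it was for 20.6% of 170 genes in more than 1 part. In MMS and caffeine the share overlapped the controls. Parts 1 and 2 gave log2 changes of -1.04 in MMS (edgeR adjusted p = 0.0657) and -0.35 in caffeine (edgeR adjusted p = 0.499), on 9 and 18 counts over 3 libraries.

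**Figure D5:**
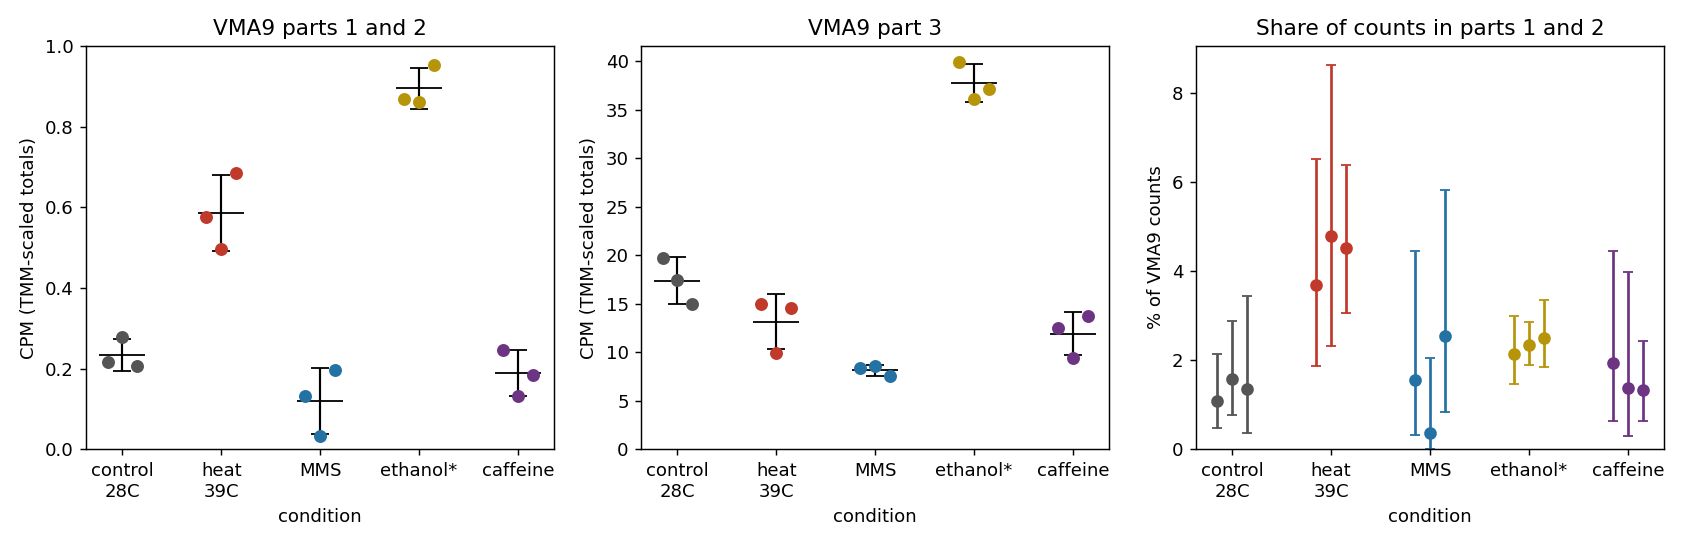
VMA9 by coding part and condition: CPM of TMM-scaled totals in parts 1 and 2 (left) and in part 3 (middle), with points for libraries, a long bar for the mean and an error bar for the SD of 3 libraries, and the percentage of VMA9 counts in parts 1 and 2 (right) with exact 95% binomial intervals; the asterisk marks ethanol, counted with another program. In heat, parts 1 and 2 lie above the controls while part 3 has 1 library within their range and the others below, and in ethanol both lie above.

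The neighbours of VMA9 showed what its surroundings did. KLLA0D04708g, which is transcribed towards VMA9 and ends 5 nt from it, stood at 233 ± 31.5 CPM in controls, far above VMA9. It was 2.08-fold lower in MMS (edgeR adjusted p = 2.49e-06) and 1.61-fold lower in caffeine (adjusted p = 0.000143), and it was 1.83-fold lower in heat (adjusted p = 1.33e-05). In ethanol, where VMA9 was higher, it differed by a log2 change of only -0.07 (edgeR adjusted p = 0.6). KLLA0D04752g, upstream of VMA9, was 2.37-fold lower in heat (edgeR adjusted p = 6.23e-07), and 1.27-fold higher in ethanol and 1.33-fold higher in caffeine (adjusted p = 0.0166 and 0.00543). The tRNA gene lies wholly within part 3 and held 0 counts in all 3 ethanol libraries. Where counting ignores the strand, a read over it also lies over VMA9 and may go uncounted, so this 0 does not show its level. The recorded featureCounts command sets no strand option, so in ethanol reads of VMA9 and of transcripts on the opposite strand cannot be told apart. KLLA0D04708g stood at 222 ± 29.7 CPM in ethanol. The strand use of the other counts is not given, but the tRNA gene did receive counts in them, 5 to 15 in heat and 0 to 2 in controls. Strand handling may thus differ between ethanol and the other conditions. The part of opposite-strand reads in the VMA9 values was not tested.

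No difference between PMP1 and its neighbours was tested. KLLA0A11396g was 1.65-fold higher in heat (edgeR adjusted p = 0.00611) and 1.58-fold higher in caffeine (adjusted p = 0.0122). It gave a log2 change of -0.11 in MMS (adjusted p = 0.63) and was lower in ethanol by a log2 change of -0.68 (adjusted p = 0.00993), the 1 stress in which it was called in PMP1's direction. KLLA0A11440g was 1.36-fold higher in MMS (edgeR adjusted p = 0.00364) and was not called in the other stresses.

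Likeness of pattern was measured as the Pearson correlation of log2 CPM over the 12 libraries without ethanol, among the 4679 (PMP1) or 4680 (VMA9) tested genes with a mean of 10 CPM or more and no annotated overlap. The libraries fall into 4 conditions, so these correlations only describe. KLLA0C00957g (chromosome 3, 71640 to 71855) was most like PMP1, with r = 0.963. This gene of 216 nt went from 6479 ± 243 CPM in controls to 2915 ± 641 CPM in MMS. KLLA0F07931g (chromosome 6, 744157 to 745629) followed with r = 0.961. For VMA9 the closest were KLLA0C05192g (chromosome 3, 466506 to 467075; r = 0.952) and KLLA0E17909g (chromosome 5, 1596664 to 1598175; r = 0.944). KLLA0C05192g was also higher in ethanol, which the measure did not use, with a log2 change of 0.45 (edgeR adjusted p = 0.00254) against 1.13 for VMA9. KLLA0E17909g was not called there and had the other sign (log2 change -0.17, edgeR adjusted p = 0.109). PMP1 and VMA9 were not close to each other by this measure (r = 0.614), which placed VMA9 at rank 741 in likeness to PMP1.

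The 15 genes whose IDs hold a name, PMP1 and VMA9 among them, had 7 called lower (46.7%) and 3 higher in MMS. PMP1 and VMA9 are both among these 7, so they add to that share. Of all tested genes 35.9% were called lower and 35.7% higher in MMS. The median log2 change of the 15 was -0.61 against -0.00 for all tested genes. In ethanol 5 of the 15 (33.3%) were lower and 3 higher (median -0.25 against -0.00), so the lower share was close to the 32.3% of all tested genes. In caffeine 5 were lower (33.3%, against 31.2% of all) and 2 higher (against 31.5% of all), with a median of -0.08 against 0.01. In heat 1 was lower (6.67%, against 38.7% of all) and 6 higher (40.0%, against 32.3% of all), with a median of 0.14 against -0.05. PMP1 had the second lowest MMS change of the 15 after RPL39. Of 180 tested genes of at most 300 nt other than tRNA genes, a group chosen after the data were seen, 83 were called lower (46.1%) and 37 higher in MMS (median -0.39). In the other stresses 72 of these short genes were lower and 34 higher in ethanol (median -0.25), 58 lower and 50 higher in heat (median -0.02), and 47 lower and 53 higher in caffeine (median -0.01). In MMS 37 of the short genes, PMP1 included, had a log2 change at or below that of PMP1, as had 586 of the 5124 tested genes. Differences between these lists and the other genes were not tested.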

How the data were processed

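The authors deposited raw counts per feature without normalization. TopHat and HTSeq appear, with no version, in the submitters' processing notes. For control, heat, MMS and caffeine, each file lists counts by coding part in the layout of HTSeq. For ethanol, featureCounts 1.6.3 assigned reads to exons, per the file headers. The genome build and HTSeq's strand setting are not given in the sources used here. Parts were summed to genes. Library sizes leave out ambiguous reads and those outside features. These averaged 2.22% and 5.61% in controls, each as a share of that class of reads plus the gene counts.

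All 15 libraries were fitted in edgeR 4.0.16 (R 4.3.3) with group as the only term, after filterByExpr and TMM scaling, with 2-sided tests adjusted over 5124 genes. SEs derive from the F statistic. Ratios and shares were tested by exact permutation in Python 3.11.15. DESeq2 1.42.0 was an alternative, beside RLE scaling, library totals, no filter, other sample sets, a 2-fold minimum, single parts, a replicate block and each replicate left out. Library totals, the sum of parts 1 and 2, and parts fitted with library totals were chosen after seeing the data. For ratios of single parts to PMP1, 0.5 was added to counts. Genes in more than 1 part needed 20 counts outside the longest part over 6 libraries.

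The members, lists and rules were chosen with earlier results of these data known. Named genes were the members, their neighbours, IDs that carry a name and the 2 genes most like each member in pattern. The only reference gene table at hand was for K. marxianus. K. lactis IDs matched 0 of its entries, so no name or sequence was added.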

Additional observations from a re-analysis of the deposited data

How the results depend on the processing

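Of 243 recomputed edgeR and DESeq2 values of the 2 genes, 197 kept their direction and their side of the threshold. The ratio is not among them, since its permutation test cannot pass. With DESeq2, RLE scaling, no filter, 12 libraries, or without other overlapping genes, no call of PMP1 or VMA9 changed. Under a test against a 2-fold minimum no call of either gene held (log2 changes in MMS -1.17 and -1.09, in ethanol -1.29 and 1.13, VMA9 in caffeine -0.54, MMS against heat -0.73 for both, caffeine against MMS 0.92 and 0.55), and 765, 677, 461 and 490 genes were called in heat, MMS, ethanol and caffeine. With library totals the calls were lost for MMS (-0.36 for PMP1, -0.26 for VMA9), VMA9 in caffeine (-0.05), MMS against heat (-0.24 and -0.22) and VMA9 in caffeine against MMS (0.21), and PMP1 in caffeine turned to 0.24. RLE scaling kept these calls, and which scaling lies nearer the true change was not tested. Fitting 6 libraries alone called PMP1 in heat (-0.39).

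VMA9 part 1 did not pass the count filter, so it has no edgeR value. Part 2 alone gave 1.03 in heat (reversed), -1.24 in MMS, -0.65 in caffeine and 0.59 in caffeine against MMS (calls lost), and -1.68 in caffeine against heat (call gained). Parts 1 and 2 together gave 1.33 in heat (reversed), -1.04, -0.35, 0.69 and -1.68 in the same order. Part 3 alone gave -0.40 in heat (call gained). With library totals, part 3 alone gave -0.26 in MMS, -0.05 in caffeine, -0.18 in MMS against heat and 0.21 in caffeine against MMS (calls lost), and 0.03 in caffeine against heat (reversed). Parts 1 and 2 together then gave 1.64 in heat and 0.14 in caffeine (reversed), -0.23 in MMS and 0.37 in caffeine against MMS (calls lost), and -1.5 in caffeine against heat (call gained). The log2 ratio moved to 2.18 in heat, 0.88 in MMS and 3.13 in ethanol with part 1 alone, and to 1.42 in heat, 3.07 in ethanol and -0.33 in MMS (reversed) with part 2 alone.

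Leaving out 1 replicate gave VMA9 -0.45 to -0.2 in heat, VMA9 -0.66 to -0.39 in caffeine, PMP1 -1.02 to -0.56 in MMS against heat, and VMA9 0.43 to 0.69 in caffeine against MMS. The log2 ratio ran from -0.14 to 0.42 in heat and from -0.04 to 0.41 in MMS. The causes were not tested.

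With the replicate number as a block, VMA9 in heat was called (-0.37, edgeR adjusted p = 0.0413), and no other call of the 2 genes changed. Same-numbered stress and control libraries deviated together, at r over 0.1, in 5 of 12 pairs (r from -0.269 to 0.243). Of the 12, 4 were closest to their own number. These correlations do not show that the numbers pair the samples, and with 3 libraries per group they cannot exclude it. Depth limits VMA9 parts 1 and 2, with 1 to 30 counts per library outside ethanol.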
